A study of Mus musculus with 4 samples.

Results

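Glycolysis was followed through 10 of its enzyme genes, taken by name, in single mouse embryonic stem (ES) cells: Hk1, Hk2, Gpi1, Pfkl, Pfkp, Aldoa, Pgk1, Eno1, Pkm and Ldha. They are 10 of the 46078 genes counted, and all 10 held counts. The wild-type ES cells had been growing in 2i, which adds leukemia inhibitory factor (LIF), CHIRON (a GSK3 inhibitor) and PD0325901 (against MEK) to N2B27 medium and holds them in naive pluripotency. A gate on forward and side scatter took small cells, meant to be those leaving mitosis or in G1, while control cells passed ungated, and both were plated on laminin for 6 h in 2i or in N2B27 alone, the differentiation medium. Single cells were then read by Smart-seq2, a method that covers whole transcripts and adds no molecular identifiers, so that a count is a read and not a molecule. The 4 groups, small or ungated cells in 2i and small or ungated cells in N2B27, are 1 sample of 24 cells each, with no further allele or agent named in the labels. With 1 sample per group no test between groups was possible, and differences are given as log2 ratios of group means, called past a size of 1, with the spread over cells beside them.

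Glycolysis splits glucose into pyruvate and gives ATP without oxygen. Hexokinase traps glucose in the cell, phosphoglucose isomerase and phosphofructokinase prepare it for cleavage by aldolase, and the lower steps, through phosphoglycerate kinase, enolase and pyruvate kinase, return ATP. Lactate dehydrogenase turns pyruvate into lactate and regenerates NAD+. Pluripotent cells are known for high glycolytic activity, and hypoxia-inducible factors and MYC are known activators of many of these genes.

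After filtering, 12, 22, 20 and 21 cells remained in 2i small and 2i ungated and in N2B27 small and N2B27 ungated, with 1364155 to 4844170 counts on genes per cell. Small cells had fewer genes detected, with medians of 7603 and 7462.5 against 9515.5 and 8200 in the ungated cells of 2i and N2B27. Their share of ERCC spike-in RNA, which rises when a cell gives less RNA, was higher, with medians of 3.47% and 2.45% against 1.28% and 1.14%. The cyclone classifier put 6, 5 and 1 of the 2i small cells in G1, S and G2/M, 0, 7 and 15 of the 2i ungated cells, 6, 11 and 3 of the N2B27 small cells, and 2, 4 and 15 of the N2B27 ungated cells. A pair of 2i small cells stood apart and are called doubted here. The first had 15712 genes and only 0.0673% spike-in counts, and the second had 40.9% spike-in counts, 4612 genes and a size factor of 0.133, which multiplies its counts several fold. Results that rest on them are given with and without them. All 8 ES cell markers held counts in every group, while fibroblast markers were at or near 0, at no more than 0.822 summed normalized counts in any cell. Of the 5 trophoblast markers, Elf5 was at 0 in every group and Cdx2 also in N2B27 ungated. The others held counts, with summed medians of 44.6 in 2i small, 186.0 in 2i ungated, 136.4 in N2B27 small and 270.3 in N2B27 ungated. The sum, which does not show which marker carried it, reached 1539.6 in a cell. Primitive endoderm markers had medians of 0 and reached 533.5 in a cell. The 4 markers of early differentiation had a lower summed median in small cells, 28.9 against 289.8 normalized counts in 2i and 5.16 against 352.4 in N2B27. All 2i cells were on a plate of their own, as were all N2B27 cells, so medium and plate cannot be told apart, and small and ungated cells lay on different index rows of each plate.

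Several of these enzymes have near-identical copies elsewhere in the genome, and reads from a gene and its copy can hardly be told apart. No copy was found for Hk1, Hk2, Pfkl or Pfkp with at least 90% identity over 300 bases. Pgk1 and the processed pseudogene Pgk1-rs7 had the same letters over all 1255 aligned bases, and yet 3186 counts lay on the pseudogene beside 15446 on Pgk1. Short coding stretches, lying within 1 exon of each gene, are shown beside the same stretch of the copy to let the reader see how little separates them, with any base that differs in capitals. The sequences are those of GENCODE transcripts on GRCm38, and Gapdh, the step between aldolase and phosphoglycerate kinase, is shown since its copies took most of its counts.
Pgk1 (chrX:106187252-106187311, plus strand): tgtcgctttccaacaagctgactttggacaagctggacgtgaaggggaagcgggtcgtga
Pgk1-rs7 (chr12:10900181-10900240, minus strand): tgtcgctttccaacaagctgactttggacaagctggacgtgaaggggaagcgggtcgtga
Gapdh (chr6:125162635-125162694, minus strand): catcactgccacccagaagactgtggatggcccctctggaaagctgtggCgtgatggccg
Gm2606 (chr15:12575422-12575481, plus strand): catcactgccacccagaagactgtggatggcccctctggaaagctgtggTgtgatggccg
Pkm (chr9:59665213-59665272, plus strand): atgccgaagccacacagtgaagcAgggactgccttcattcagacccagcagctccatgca
Gm6560 (chr5:22726109-22726168, minus strand): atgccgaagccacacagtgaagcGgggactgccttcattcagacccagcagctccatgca
The Pgk1 stretch has no difference in 60 bases, and those of Gapdh and Pkm have 1. Over the whole alignment, Gm6560 differed from Pkm at 24 of 1593 bases with 2 gaps, and the longest identical stretch had 195 bases.

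The copies took 75.01% to 79.1% of the summed normalized counts of Eno1 and its copies in the 4 groups, 29.1% to 30.7% for Gpi1, 14.02% to 19.7% for Pgk1 and 7.90% to 9.61% for Pkm. For Aldoa and Ldha they took no more than 2.29%. Most of the counts beside Eno1 lay on Eno1b, 338% of the count on Eno1 itself, with further ones on Gm4735 and Gm5855. The other copies that held at least 1% of the count on their gene were Gm5537 for Pgk1, Aldoart1 for Aldoa and Ldha-ps2 for Ldha. Gapdh, often used as a reference gene, held only 7020 counts in the kept cells, while 111796 lay on its 164 annotated copies in the files. Within samples the levels of a copy and its gene went together over cells, with a mean Spearman correlation of 0.935 for Eno1b and Eno1, 0.956 for Gm1840 and Gpi1, 0.945 for Gm6560 and Pkm and 0.858 for Pgk1-rs7 and Pgk1 over 75 cells that share library depth. Adding the copies to their genes left the 10 enzymes' direction as it was between small and ungated cells in both media. The Gapdh ratio of small to ungated cells was -1.37 in N2B27 and -1.16 in 2i for the gene alone, and -0.55 and -0.74 with its copies.

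**Figure D1:**
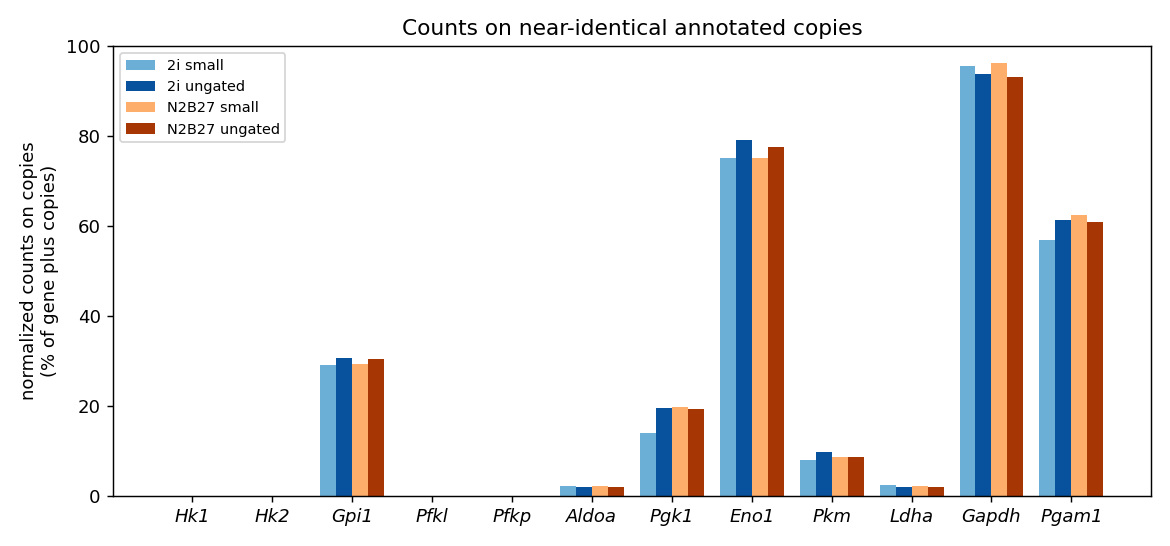
Share of normalized counts (%) that lay on near-identical annotated copies rather than on the gene itself, for the 10 enzymes and for Gapdh and Pgam1, with 1 bar per group and no error bars since each group is 1 sample. Hk1, Hk2, Pfkl and Pfkp have no copies, while at least 75.01% of the Eno1 and 93.0% of the Gapdh counts lay on copies in all 4 groups.

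As a share of all counts on genes, the 10 enzymes together, without their copies, were lower in small than in ungated cells of both media. They were also lower in N2B27 than in 2i behind both gates. They took 0.745% of counts in 2i small (95% binomial interval 0.742% to 0.748%), 1.11% in 2i ungated (1.10% to 1.11%), 0.493% in N2B27 small (0.491% to 0.495%) and 0.755% in N2B27 ungated (0.753% to 0.757%). These intervals are exact and cover counting error only, which is far below the spread between cells. Per cell the lowest, median and highest shares were 0.118%, 0.584% and 2.18% in 2i small, 0.504%, 1.16% and 1.66% in 2i ungated, 0.105%, 0.421% and 1.10% in N2B27 small, and 0.498%, 0.742% and 1.48% in N2B27 ungated. The groups overlapped, but 13 of the 20 N2B27 small cells and 5 of the 12 2i small cells lay below the lowest ungated cell of their medium. Without both doubted cells the 2i small share was 0.811%.

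**Figure D2:**
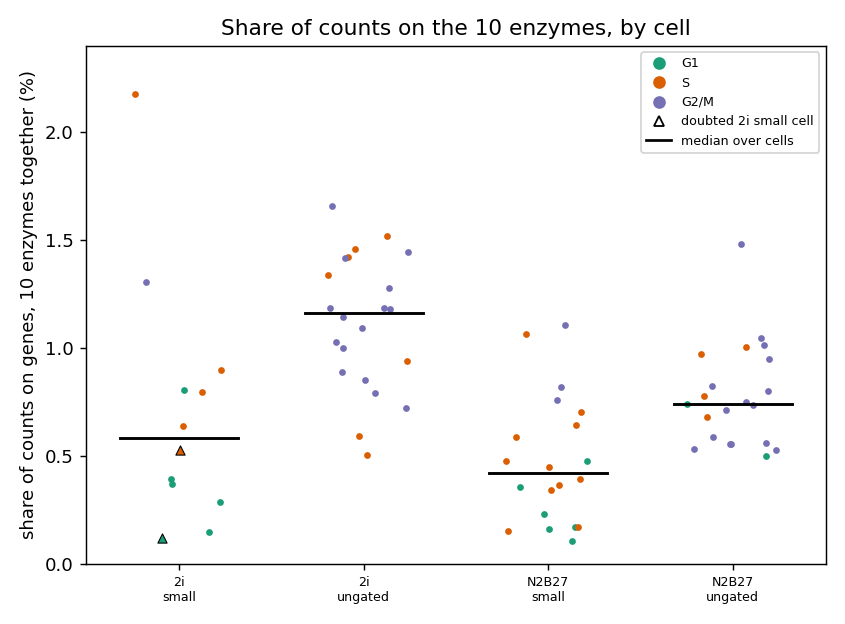
Share of counts on genes (%) taken by the 10 enzymes together in each kept cell, by group, coloured by cyclone phase, with the median over cells as a bar and the doubted cells as triangles. Cells called G1, in green, lie mostly in the lower part of both small groups, and 13 of 20 N2B27 small cells lie below every ungated N2B27 cell.

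Phase and RNA content moved with this share among small cells. In N2B27 small the median share was 0.201% over 6 G1 cells, 0.451% over 11 S cells and 0.820% over 3 G2/M cells, and the median spike-in share was 4.93%, 2.36% and 1.31% in the same order. In 2i small it was 0.329% over 6 G1 cells, 0.795% over 5 S cells and 1.31% in the only G2/M cell. The Spearman correlation between spike-in share and enzyme share over cells was -0.66 in N2B27 small, -0.55 in 2i small, -0.53 in N2B27 ungated and -0.11 in 2i ungated, where both measures share the same library. Cells on index row i502 had a higher median share than those on i503, 0.795% against 0.393% in 2i small and 0.451% against 0.231% in N2B27 small. The part of phase, RNA content, index row and the trophoblast and early differentiation markers in the differences was not tested. These shares are relative to all counts on genes of a cell, and do not give the number of enzyme transcripts per cell.

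Per kilobase of exon, the enzymes of the lower steps were far above the hexokinases. Aldoa led in 3 groups and Pkm in N2B27 small. Aldoa had a mean of 2862 normalized counts per kb in 2i ungated, 2017 in 2i small, 1578 in N2B27 ungated and 673.2 in N2B27 small, and Pkm had 2204, 1166, 1525 and 887.5. Aldoa stood at place 61 of the 18535 genes with a count in 2i ungated, and Pkm at place 86. Ldha came next in 3 groups at 385.2 to 875.0 per kb. In 2i small it had 326.9 and Pgk1 344.9, but without both doubted cells Ldha had 344.4 and Pgk1 103.6. Eno1 stood at 201.9 to 363.3 before its copies are added. With copies added to both, Eno1 stood above Ldha in every group, at 812.6 to 1742 against 334.6 to 891.3 per kb. Gpi1 followed at 116.9 to 191.0, Pfkl at 34.02 to 102.0, Pgk1 at 55.5 to 75.05 outside 2i small and Pfkp at 5.52 to 43.4. Hk1 and Hk2, at 1.84 to 12.7 per kb, were last in all groups but 2i small, where Pfkp lay between them. With the length of the longest coding transcript in place of the union of exons, the order changed in places. Pkm led Aldoa in N2B27 ungated, Pfkp passed Pfkl in N2B27 small and Pgk1 in 3 groups, and Hk1 passed Hk2 in both ungated groups. In 2i small Ldha and Eno1 passed Pgk1 and Pfkp passed Hk2, so that the hexokinases were last in every group.

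**Figure D3:**
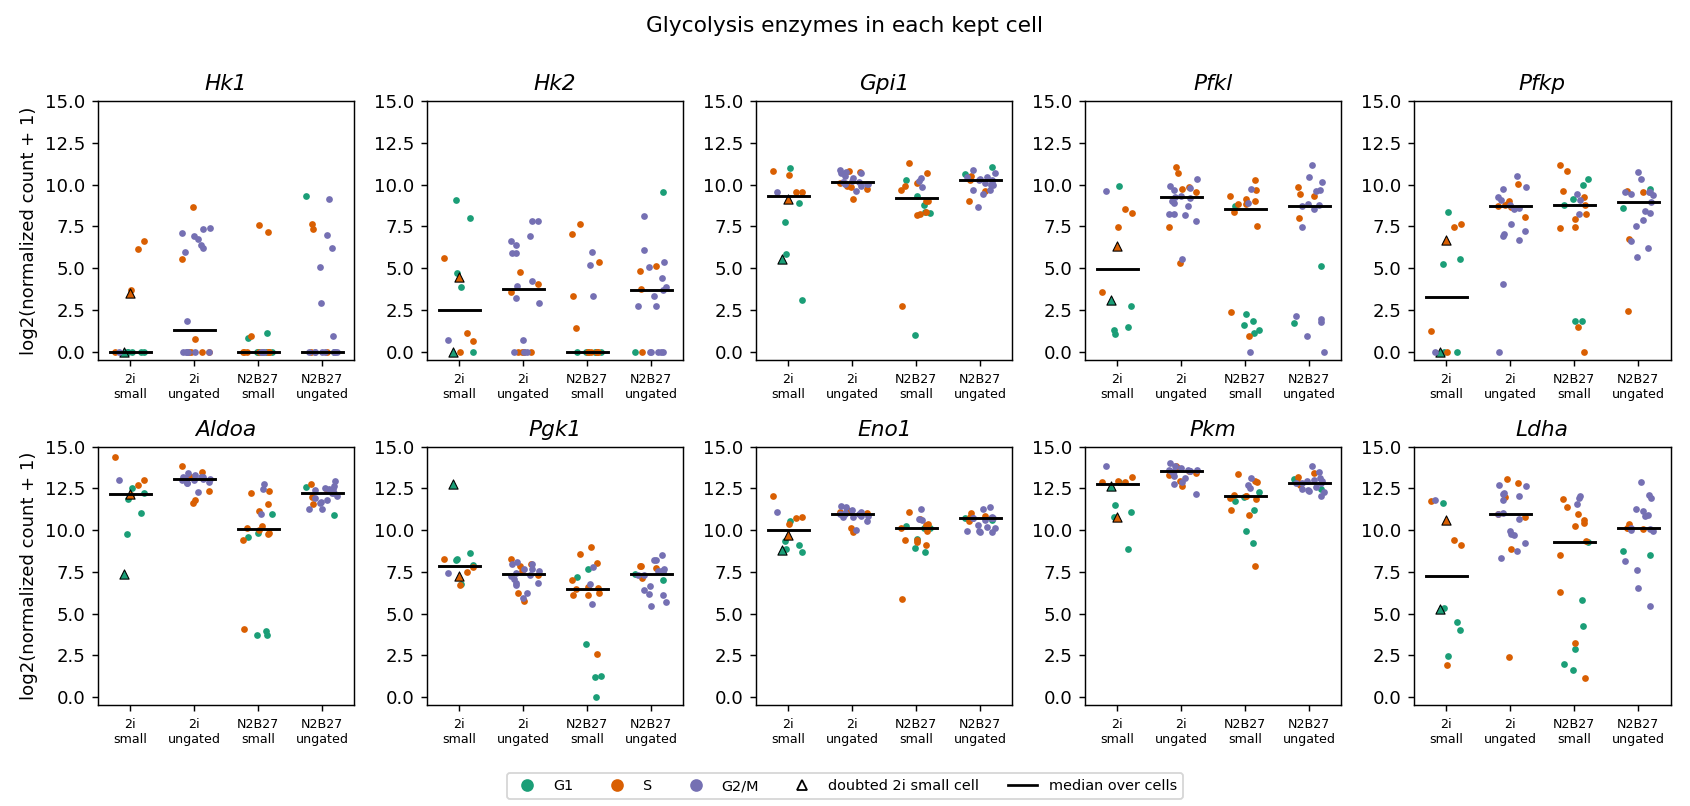
Level of each enzyme gene in each kept cell as log2(normalized count + 1), by group, with the same vertical axis in all panels, points coloured by cyclone phase, doubted cells as triangles and the median over cells as a bar. Gpi1, Aldoa, Eno1 and Pkm form tight bands in ungated cells and tails in small cells, Ldha spreads over a wide range in all groups, and Hk1 and Hk2 are at 0 in many cells.

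The comparison of small and ungated cells in N2B27 asks what 6 h in differentiation medium looks like in cells that started early in the cell cycle. Of the 10 enzymes 9 were lower in small cells, with a median log2 ratio of -0.59 against -0.10 over the 8704 genes whose group means averaged 20 normalized counts or more. Hk1 (-2.30), Hk2 (-1.31) and Aldoa (-1.23) were lower by more than 1, where 16.4% of all genes compared were lower and 12.8% higher by that much. Pkm (-0.78), Gpi1 (-0.62), Pfkl (-0.57), Eno1 (-0.54), Pgk1 (-0.43) and Ldha (-0.36) were lower by less, and Pfkp stood at 0.12. The Hk2 value rests on 1 cell: without the highest N2B27 ungated cell it was -0.17. Among G2/M cells alone, 3 small against 15 ungated, the median was -0.024 and Aldoa stood at 0.056. Among S cells it was -0.38, over 11 small and 4 ungated cells. Scaled to the ERCC spike-ins, which compares levels per cell, it was -1.22 against -0.83 over all genes, and 8 of the 10 enzymes were lower by more than 1, as were 40.4% of all genes under that scaling.

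In 2i, where the cells stay naive, 8 of the 10 were lower in small cells, with a median of -0.81 against -0.31 over 8541 genes. Pfkp (-2.58), Hk1 (-1.91), Pfkl (-1.58) and Ldha (-1.42) were lower by more than 1, as were 26% of all genes compared. Pkm (-0.92), Gpi1 (-0.71), Eno1 (-0.54) and Aldoa (-0.51) were lower by less, while Hk2 (0.78) was higher in the mean. The Hk2 value was 1.00 without both doubted cells and -0.38 without the highest 2i small cell. Pgk1 was higher by 2.20, past a size that 17.6% of genes reached in that direction, but 73.3% of its normalized counts in 2i small lay in the doubted cell with the high spike-in share, and without both doubted cells its ratio was 0.47. Scaled to the ERCC spike-ins, the median of the 10 enzymes was 0.14 with the doubted cells and -1.64 without them, against -1.25 over all genes, so that its direction rests on that pair of cells.

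Between small cells of both media, the enzymes went apart and their median was -0.14 in N2B27 relative to 2i, against 0.08 over 8455 genes. Pfkp was higher in N2B27 by 2.96, and Pgk1 (-2.63), Hk2 (-1.60) and Aldoa (-1.58) were lower, while 22.1% of genes compared were higher and 19.2% lower by a size of 1. Without both doubted 2i small cells Pfkp stood at 2.88, Aldoa at -1.74, Hk2 at -1.82 and Pgk1 at -0.89. Hk2 was at -0.44 without the highest 2i small cell. Hk1 (0.08) averaged under 20 normalized counts here, and over the other 9 enzymes the median was -0.31. Between ungated cells of both media no enzyme passed a size of 1, where 8.05% of 8682 genes were higher and 9.42% lower. The lowest were Aldoa (-0.86), Ldha (-0.82) and Pkm (-0.53), the highest Hk2 (0.48, or -0.65 without the highest N2B27 ungated cell) and Hk1 (0.47), and the median of -0.18, against -0.02 over all genes, turned positive without a filter on cells (0.19), with fixed limits on cells (0.14) and with poscounts size factors (0.26).

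**Figure D4:**
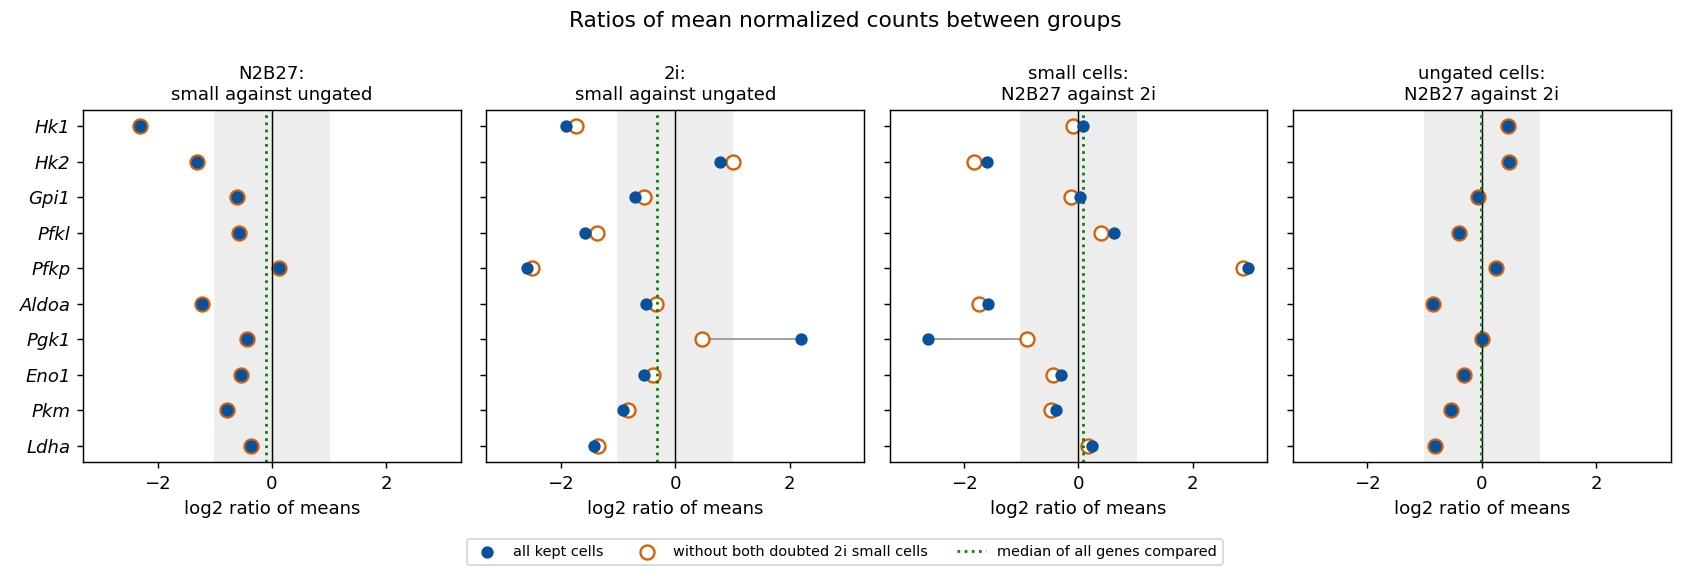
Log2 ratio of mean normalized counts (pseudocount 1) for each enzyme in the 4 comparisons, filled for all kept cells and open without both doubted 2i small cells, with sizes under 1 shaded and the median of all genes compared as a dotted line. In both comparisons of small with ungated cells most enzymes lie left of the dotted line, and only Pgk1 moves far when the doubted cells are left out.

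Hexokinases catalyse the first committed use of glucose, and both transcripts were sparse. Hk1 (ENSMUSG00000037012, chr10:62268855-62379908 on GRCm38) had a lowest, median and highest level of 0, 0 and 97.0 normalized counts in 2i small, 0, 1.65 and 408.3 in 2i ungated, 0, 0 and 188.0 in N2B27 small, and 0, 0 and 633.7 in N2B27 ungated. Its counts lay in 4 of 12, 12 of 22, 5 of 20 and 9 of 21 cells, so a few cells carried it, and fewer of them were small. Summed over cells, which differ in number between groups, it had 283 counts (exact Poisson 95% interval 251.0 to 318.0) in 2i small. The sum was 339 (303.9 to 377.1) in N2B27 small, against 1603 and 2035 in ungated cells of 2i and N2B27. Its mean normalized counts were 15.7 and 16.6 in small cells and 61.7 and 85.6 in ungated cells of 2i and N2B27. Hk2 (ENSMUSG00000000628, chr6:82725025-82774454), the isozyme linked to growth and to insulin-sensitive tissue, ranged from 0 through 7.42 to 539.3 in 2i small, from 0 through 12.6 to 226.8 in 2i ungated, from 0 through 0 to 198.4 in N2B27 small and from 0 through 11.7 to 740.9 in N2B27 ungated. It was found in 9 of 12, 15 of 22, 8 of 20 and 14 of 21 cells of these groups, and all 6 N2B27 small cells called G1 were at 0. The cell with the highest level held 59.5% of the Hk2 counts of 2i small and 57.4% of those of N2B27 ungated, so these means rest largely on 1 cell. At 10 or more counts, both hexokinases were found together in 1 of 12, 5 of 22, 0 of 20 and 2 of 21 cells of the groups in this order, and neither in 3, 4, 11 and 4. Their levels had the lowest correlation of any pair of the 10 enzymes, -0.26 as a mean of the within-sample Spearman values.

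Gpi1 (ENSMUSG00000036427, chr7:34201330-34230336), phosphoglucose isomerase, was found in all 75 cells. It ranged from 7.52 through 645.6 to 2073 in 2i small, from 573.0 through 1133 to 1850 in 2i ungated, from 1.02 through 576.6 to 2487 in N2B27 small and from 395.6 through 1224 to 2156 in N2B27 ungated. Small cells thus spread to both sides of the ungated ones, with 6 of 12 and 7 of 20 below the lowest ungated cell and 1 above the highest in each medium. The means were 754.1, 1232, 771.2 and 1184.

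Phosphofructokinase, the main point of control of the pathway, is made from the Pfkl, Pfkp and Pfkm subunits. Pfkl (ENSMUSG00000020277, chr10:77986947-78010083), the liver type, ranged from 1.08 through 45.6 to 976.6 in 2i small, from 38.3 through 599.2 to 2161 in 2i ungated, from 0 through 376.5 to 1245 in N2B27 small and from 0 through 419.0 to 2265 in N2B27 ungated. In 2i small 6 of 12 cells lay below every ungated cell. Pfkp (ENSMUSG00000021196, chr13:6579768-6648777), the platelet type, ranged from 0 through 19.5 to 329.1 in 2i small, from 0 through 415.2 to 1466 in 2i ungated, from 0 through 434.0 to 2327 in N2B27 small and from 4.34 through 502.7 to 1728 in N2B27 ungated. All 12 of the 2i small cells were below the 2i ungated median, and only 7 of them held a count, against 21 of 22, 19 of 20 and 21 of 21 cells of the other groups. Its sums, over unequal numbers of cells, were 1310 counts in 2i small and 11816, 14044 and 13028 in the others. Its mean normalized counts were 73.9 in 2i small, 447.9 in 2i ungated, 581.4 in N2B27 small and 535.1 in N2B27 ungated. By these means the other 3 groups were close to each other and 2i small stood apart. Pfkp lies in a region where Pitrm1 is annotated on the opposite strand, and the library does not mark strand. Reads of the shared part cannot be told apart and may lie among the ambiguous reads, 6.77% of the deposited counts, which were left out. The Pfkp level may thus be too low. Per kb, Pfkl held 55.6% and 55.2% of the 3 subunits in small and ungated cells of 2i and 41.9% and 46.7% in those of N2B27, and in this order Pfkp held 9.02%, 18.1%, 34.8% and 24.1%. With the longest coding transcript as the length, Pfkp held 17.2%, 31.1%, 52.4% and 39.8%.

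Aldoa (ENSMUSG00000030695, chr7:126795234-126800751), the aldolase that cleaves fructose bisphosphate in most tissues, was the enzyme with most N2B27 small cells below the ungated range. It ranged from 165.8 through 4657 to 21124 in 2i small, from 3159 through 8527 to 14676 in 2i ungated, from 12.3 through 1073 to 6798 in N2B27 small and from 1916 through 4707 to 7757 in N2B27 ungated. In N2B27 small 12 of 20 cells lay below the lowest ungated cell, and 16 below the ungated median. Its median was 390.5 in G1, 1128 in S and 5574 in G2/M cells of that group, and 4707 in the 15 G2/M cells of N2B27 ungated. Aldoc, the brain isozyme, gave no more than 3.26% of the aldolase level per kb in any group, although its mean was higher in small cells, by 1.29 in N2B27 and 1.88 in 2i, with counts in 3 to 6 cells per group.

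Pgk1 (ENSMUSG00000062070, chrX:106187100-106203699), phosphoglycerate kinase, returns the first ATP. It ranged from 102.1 through 232.6 to 6811 in 2i small, from 53.1 through 165.7 to 302.7 in 2i ungated, from 0 through 88.8 to 502.7 in N2B27 small and from 43.4 through 168.1 to 361.4 in N2B27 ungated. The medians of the ungated groups were almost the same, and the mean of 774.0 in 2i small, which was 232.4 without both doubted cells, was the only one far from its median. Of the 12 cells of 2i small, 4 lay above the highest ungated cell. In N2B27 small 5 of 20 lay below the lowest ungated cell.

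Eno1 (ENSMUSG00000063524, chr4:150236721-150248879), the main enolase, ranged from 407.8 through 1081 to 4289 in 2i small, from 949.4 through 2014 to 2787 in 2i ungated, from 56.6 through 1114 to 2496 in N2B27 small and from 942.7 through 1681 to 2706 in N2B27 ungated. In 2i 6 of 12 small cells, and in N2B27 8 of 20, were below every ungated cell. With its copies the ratio of small to ungated cells was -0.69 in N2B27 and -0.80 in 2i, compared with -0.54 in both for Eno1 alone.

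Pkm (ENSMUSG00000032294, chr9:59656368-59679375), pyruvate kinase of muscle and of dividing cells, makes the last ATP of the pathway. It ranged from 475.1 through 6969 to 14690 in 2i small, from 4628 through 11788 to 16551 in 2i ungated, from 234.4 through 4141 to 10699 in N2B27 small and from 4226 through 7337 to 14588 in N2B27 ungated. Below the lowest ungated cell lay 5 of 12 small cells in 2i and 11 of 20 in N2B27. The gene gives 2 main splice forms, which a count per gene does not separate.

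Ldha (ENSMUSG00000063229, chr7:46841475-46855627), which favours lactate formation, spread widely over cells. It ranged from 2.85 through 293.1 to 3550 in 2i small, from 4.25 through 1968 to 8368 in 2i ungated, from 1.21 through 633.1 to 4212 in N2B27 small and from 42.9 through 1106 to 7537 in N2B27 ungated. Its groups overlapped over most of their range. Within N2B27 small its median was 12.2 over 6 G1 cells, 1232 over 11 S cells and 3873 over 3 G2/M cells, whereas N2B27 ungated had 396.2 over 2 G1 cells, 1116 over 4 S cells and 1106 over 15 G2/M cells. Ldhb, the subunit known for the reverse direction, exceeded Ldha per kb in all 12 2i small, all 22 2i ungated, 19 of 20 N2B27 small and 20 of 21 N2B27 ungated cells. Ldhb held 93.9%, 82.0%, 88.2% and 86.2% of the summed level per kb of both subunits in these groups.

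**Figure D5:**
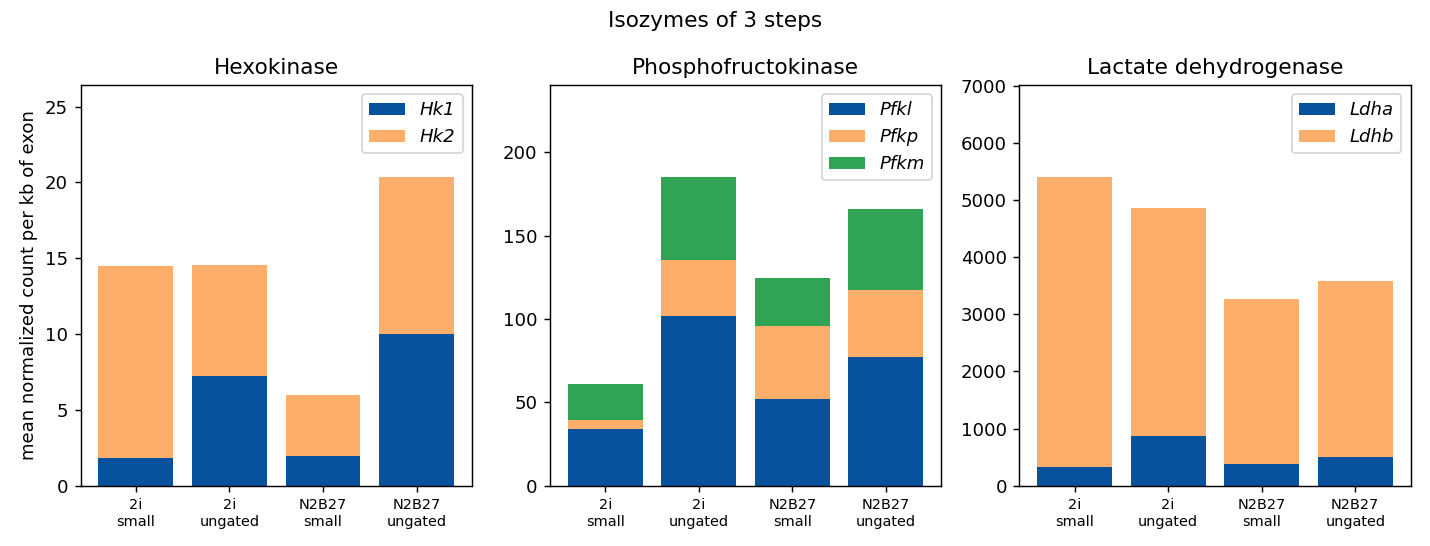
Mean normalized count per kb of exon in each group for the isozymes of hexokinase, phosphofructokinase and lactate dehydrogenase, stacked, with a vertical scale of its own in each panel and no error bars since each group is 1 sample. Ldha is the thin lower part of each lactate dehydrogenase bar, and Pfkp is smallest in 2i small.

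Low values were then counted by cell. No matching count over all genes was made, so whether low values are particular to the enzymes was not tested. Only 7 enzymes in each medium could count, since the lowest ungated cell was at 0 for Hk1, Hk2 and Pfkl in N2B27 and for Hk1, Hk2 and Pfkp in 2i. In N2B27 10 of 20 small cells were below the lowest ungated cell for at least 3 enzymes, of which 5 were called G1 and 5 S, with a median spike-in share of 3.65% and 6757 genes detected. For none of the enzymes was this so in 5 small cells, of which 2 were in S and 3 in G2/M, with 1.31% spike-in counts and 8492 genes. Among the 12 small cells of 2i, 6 were below that limit for at least 3 enzymes, 5 of them in G1. Across cells within samples, 38 of the 45 pairs of enzymes had a mean Spearman correlation above 0, with a median of 0.19. The highest were Eno1 with Pkm (0.65), Aldoa with Pkm (0.59), Eno1 with Ldha (0.56) and Aldoa with Eno1 (0.54), all of the lower, abundant steps. Cell depth is common to all genes of a cell, and these values are descriptions over 75 cells.

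The 5 genes outside the list whose level over cells was most like the mean of the 10 enzymes were Gm6560 (0.64), Gm5559 (0.64), Gm12033 (0.61), Eno1b (0.61) and Gm2606 (0.57), as means of within-sample Spearman values over 75 cells. The median over the 6330 genes whose mean reached 20 in every group was 0.11. All 5 are near-identical copies of glycolysis genes, of Pkm, of Eno1 and, 3 of them, of Gapdh. Pkm and Eno1 are part of that mean, and reads of Gm6560 and Eno1b can hardly be told from theirs. The likeness of Gm6560 and Eno1b was thus largely set in advance.

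The promoters of the 10 enzymes were read for the core of the hypoxia response element, ACGTG on either strand. They were also read for the E-box CACGTG bound by MYC, which holds that core. For the members with the strongest ties over cells, except Eno1, the 250 bases before a start site with a match are shown. Promoter windows of 300 bases from RefSeq on GRCm38.p6 were matched for all 10 enzymes, 17 windows in all. ACGTG was in a window of 6 of the 10 (Hk1, Hk2, Aldoa, Pgk1, Pkm and Ldha), and in 21.8% of 27025 genes. Counted by window, since some genes have several, it was in 7 of 17 against 19.6% of 32851. Overlapping windows of Aldoa share the same match. CACGTG was in a window of Ldha alone, and in 8.09% of genes. No Hk1 match of ACGTG lay in the 250 bases before a start site, since the windows reach past it. Ldha, Aldoa and Pkm each also have a window with no match, which is not shown. The upstream part is shown for Ldha, Aldoa and Pkm, with ACGTG on either strand in capitals, and a match in these letters is a description and no evidence of binding.
Ldha (chr7:46845554-46845803, plus strand): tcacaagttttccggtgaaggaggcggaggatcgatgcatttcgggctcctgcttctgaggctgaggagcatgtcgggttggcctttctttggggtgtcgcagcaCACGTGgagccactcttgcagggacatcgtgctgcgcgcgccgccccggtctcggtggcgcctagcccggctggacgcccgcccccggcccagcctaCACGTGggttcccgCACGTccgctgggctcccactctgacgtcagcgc
Aldoa (chr7:126799255-126799504, minus strand): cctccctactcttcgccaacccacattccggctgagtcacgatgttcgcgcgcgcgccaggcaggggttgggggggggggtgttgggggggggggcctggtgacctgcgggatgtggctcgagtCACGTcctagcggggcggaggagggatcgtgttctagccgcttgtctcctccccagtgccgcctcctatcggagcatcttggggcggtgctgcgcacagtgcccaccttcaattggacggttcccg
Pkm (chr9:59656977-59657226, plus strand): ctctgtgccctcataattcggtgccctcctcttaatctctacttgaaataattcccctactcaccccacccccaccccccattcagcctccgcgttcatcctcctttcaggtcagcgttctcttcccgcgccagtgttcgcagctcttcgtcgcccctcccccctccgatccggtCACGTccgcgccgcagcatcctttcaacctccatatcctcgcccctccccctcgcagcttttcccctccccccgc
Ldha holds 2 E-boxes and a further core, while Aldoa and Pkm hold 1 core each in the stretches shown. Eno1, which went with Pkm most closely, had neither in its windows.

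Of the 18 other enzymes and isozymes listed for the pathway, 9 had a mean of at least 20 in N2B27, where 6 were lower in small cells, and 7 did in 2i, where 4 were lower. Tpi1, triose phosphate isomerase, stood at -0.56 in N2B27 and -0.93 in 2i, and Pgam1, phosphoglycerate mutase, at -0.75 and 0.06, the latter -0.68 without both doubted cells. Pfkm stood at -1.18 in 2i, and at -0.97 without those cells. Eno3, the muscle enolase, was at a mean of 0.348 in N2B27 small and 58.1 in N2B27 ungated, where 8 of 21 cells carried it, and between ungated cells it was higher in N2B27 by 1.31. Ldhc, the testis subunit, had counts in 5 of 20 N2B27 small cells and none in any cell of the other 3 groups.

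Of the 5 glucose and lactate transport genes compared, 2 were lower by more than 1 in small cells of N2B27 and 3 in those of 2i, against 16.4% and 26% of all genes. The other values lay below 0 too, and the nearest to 0 was -0.085 for Bsg in N2B27. The median of the genes compared was -0.83 in N2B27 and -1.20 in 2i, beside -0.10 and -0.31 over all genes. Slc2a1, the basal glucose transporter GLUT1, had a lowest, median and highest level of 0, 9.48 and 1044 in 2i small, 3.29, 810.8 and 4202 in 2i ungated, 0, 384.8 and 1732 in N2B27 small, and 338.1, 1362 and 4038 in N2B27 ungated. Its ratio of small to ungated cells was -2.23 in 2i and -1.75 in N2B27, and it was higher in N2B27 than in 2i among small cells by 1.22. Slc16a1, a lactate transporter, was lower in small cells by 1.20 in 2i and 2.27 in N2B27, and lower in N2B27 than in 2i among small cells by 1.67. Slc16a3, the lactate exporter induced by hypoxia, had a single count in 2i small and a mean of 46.1 in 2i ungated, 51.8 in N2B27 small and 86.5 in N2B27 ungated. Its median was 0 in every group, and 10 or more counts lay in 7 of 22, 4 of 20 and 6 of 21 cells of the latter. The highest cell held 67.9% of its level in N2B27 small and 44.1% in N2B27 ungated.

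The kinases that hold back pyruvate dehydrogenase went apart. Pdk1 stood at -1.46 in N2B27 and -0.69 in 2i and Pdk2 at -2.23 and -2.62. Pdk2 had counts in only 1 of 20 N2B27 small and 2 of 12 2i small cells, against 10 of 21 and 8 of 22 ungated cells. Pdk3 had means of 318.3 and 318.4 in small and ungated cells of N2B27 and a ratio of -0.39 in 2i. The pyruvate dehydrogenase genes Pdha1 (-1.12) and Dlat (-1.19) were lower in N2B27 small than in N2B27 ungated cells, and Dlat was lower in N2B27 than in 2i among small cells (-1.08). In 2i small cells Tigar (3.85), Mpc1 (3.42) and Pdhb (1.47) were above ungated cells, but 87.8%, 84.7% and 71.9% of their normalized counts came from 1 cell, and without both doubted cells the ratios were 0.99, 0.93 and -0.25. The same genes stood at -3.92, -3.11 and -1.17 in the comparison of small cells between media, and at -1.06, -0.62 and 0.55 without those cells.

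Of the 9 listed factors known to act on these genes, 7 could be compared in N2B27 and 6 in 2i, and 3 were lower by more than 1 in N2B27 small cells, Max (-1.28), Arnt (-1.11) and Mycn (-1.10), and 2 in 2i small cells, Arnt (-3.34) and Mycn (-1.14), where 16.4% and 26% of all genes were. Without both doubted cells Mycn was -0.92 and Arnt -5.05, since 87.9% of the Arnt level in 2i small lay in 1 cell. In N2B27 small 95.6% of the Arnt level lay in 1 cell. Hif1a was higher in the mean in N2B27 than in 2i among small cells, by 1.84. The Hif1a median was not, at 28.7 in N2B27 small and 31.5 in 2i small. Myc was higher in N2B27 by 1.41 among small and by 1.14 among ungated cells. The Myc median was 0 in every group. Its counts lay in 3 of 12 2i small, 7 of 22 2i ungated, 6 of 20 N2B27 small and 8 of 21 N2B27 ungated cells. The highest cell held 70.9% of its level in 2i small and 44.9% in N2B27 small. Genes induced by hypoxia outside glycolysis were mostly too low to compare, 3 of 10 in either gate comparison. Ndrg1 was lower in small cells by 1.42 in N2B27 and 1.99 in 2i, and P4ha1 by 1.98 in 2i. Ndrg1 had counts in 2 of 20 N2B27 small and 4 of 12 2i small cells, against 5 of 21 and 11 of 22 ungated cells. Bnip3, the third gene compared, stood at -0.38 in N2B27 and 0.91 in 2i, or 1.03 without both doubted cells. Its median in N2B27 was 2.94 in small and 198.2 in ungated cells. The highest cell held 43.1% of the Bnip3 level in N2B27 small and 40.8% in 2i small. P4ha1 was higher in N2B27 by 2.61 among small and 1.09 among ungated cells, and Bnip3 by 1.19 among ungated cells. The P4ha1 median was only 0.556 in 2i small and 1.07 in N2B27 small, with 10 or more counts in 3 of 12 and 8 of 20 cells. The highest cell held 52.5% and 26.4% of the P4ha1 level in these groups.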

How the data were processed

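Per the study's methods and the submitters' processing notes, the authors trimmed reads with Trim Galore 0.4.4, aligned them to GRCm38 (mm10) with GSNAP and counted reads per Ensembl gene with HTSeq. The deposited values are raw counts, with no molecular identifiers. Cells were assigned to samples through the deposited list of runs. Of the deposited counts, 72.4% lay on genes, 3.85% on 92 ERCC spike-ins and 23.8% on rows that name no gene, which were left out. Cells were filtered per plate at 3 median absolute deviations (scater 1.30.1). Counts were divided by DESeq2 1.42.0 median-of-ratios size factors over 1227 genes counted in every kept cell, phases were called with cyclone (scran 1.30.0), and ratios are log2 of group means plus a pseudocount of 1, over genes whose 2 group means average at least 20. Intervals are exact Poisson and exact binomial ones. R 4.3.3 and Python 3.11.15 were used, and the calculation was tested on simulated data.

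With 1 sample per group there is no replicate check and no p-value. The 10 enzymes and Gapdh, Tpi1 and Pgam1 were always named, other listed pathway genes past a log2 ratio of 1, copies with at least 1% of the count on their gene (for Gapdh, those the results turn on), and the 5 genes most like the members; Ldhb, Bsg and Pdk3, and Pdk1 and Bnip3 in comparisons where they did not pass, were named after their values were seen. The members and lists were chosen with earlier results of these data known. Near-identical copies had at least 90% identity over 300 bases. Alternatives were other size factors, pseudocounts, filters and summaries, single phases and leaving out the doubted cells; those without the doubted cells in spike-in scaling, with copies, with other lengths and without 1 cell of a group were added after seeing the data. No column of another sample was used, and counts were not depth-matched in the main result. A sequence comparison for another of the enzymes is not reported here.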

Additional observations from a re-analysis of the deposited data

Results flagged for a closer look

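For 3 enzymes the ratio of small to ungated cells had opposite signs in 2i and N2B27, and the difference between media was not tested, since each group is 1 sample. For Hk2 the log2 ratio was 0.78 in 2i and -1.31 in N2B27, a difference of 2.08, or 2.31 without both doubted 2i small cells. Its sign in 2i rests on 1 cell, since the ratio was -0.38 without the highest 2i small cell, and the medians were 7.42 in small and 12.6 in ungated cells. In N2B27 it was -0.17 without the highest ungated cell. For Pfkp it was -2.58 in 2i and 0.12 in N2B27, a difference of -2.70, or -2.62 without those cells. Its sign in N2B27 rests on 1 cell too, as the ratio was -0.13 without the highest N2B27 small cell. For Pgk1 it was 2.20 in 2i and -0.43 in N2B27, a difference of 2.63, or 0.90 without those cells.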

How the results depend on the processing

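No paired analysis was possible because each group is 1 sample. In N2B27, the small to ungated median of the enzymes was -0.26 with poscounts size factors, -1.36 as a mean of log2 values and -0.024 in G2/M cells, and the number past a size of 1 was 8 with ERCC size factors, with or without the doubted cells, 7 as a mean of log2 values, 5 with no filter or fixed limits on cells and 1 in G2/M cells. Past that size in the same order were 44.3%, 47.2%, 34.2%, 36.3% and 48.0% of all genes. In G2/M cells Aldoa was 0.056 and Hk2 0.14, and Hk2 was 0.87 in S cells. In 2i, the median was 0.14 with ERCC size factors and 0.019 in G2/M cells (1 small cell), the number was 3 with ERCC size factors, in S and in G2/M cells, and 9 with ERCC size factors without the doubted cells, where Pgk1 was -0.89, beside 44.9%, 38.9%, 49.7% and 65.8% of all genes. Ldha was 0.36 with ERCC size factors and 0.42 in G2/M cells, and Pfkl 0.49 in G2/M cells. Between small cells, the median was 0.10 with ERCC size factors without the doubted cells, with 1 enzyme past a size of 1, and 7 passed it with them, beside 33.1% and 74.9% of all genes. Hk2 was 1.23 in S and 4.46 in G2/M cells. Between ungated cells, the median was 0.19 with no filter, 0.14 with fixed limits and 0.26 with poscounts, and 2 enzymes passed in S cells and 1 as a mean of log2 values or a median over cells, beside 41.5%, 40.3% and 34.4% of all genes. The share of counts with no filter was 0.734% in 2i small, 1.09% in 2i ungated and 0.740% in N2B27 ungated, and 0.811% in 2i small without the doubted cells. The cause of these changes was not tested. Many cells hold a hexokinase at under 10 counts, where counting error is large.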
